A study of Mus musculus with 9 samples.

Results

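The pathway that makes prostaglandin E2 and prostacyclin from arachidonic acid and senses prostaglandin E2 was followed in cultured mouse glia by 10 genes: the phospholipase Pla2g4a, the cyclooxygenases Ptgs1 and Ptgs2, the prostaglandin E synthases Ptges, Ptges2 and Ptges3, the prostacyclin synthase Ptgis, and the prostaglandin E receptors Ptger2, Ptger3 and Ptger4. The members were all probes whose gene symbol in the platform annotation is one of these names. This gave 12 of the 24613 probes on the array, for 9 of the 10 genes, and Ptgs1 was not analysed here. A probe was tested if 3 or more of the 9 arrays detected it, that is, gave it a detection p below 0.01. This left 8 of the 12 probes, for 7 genes, among 13972 tested probes in all.

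Expression was measured on Illumina bead arrays in primary cultures of glia (astrocytes, microglia and the other support cells of nervous tissue), in 3 groups of 3 arrays. SOD1-G93A glia came from pups labelled B6SJL-Tg(SOD1*G93A)2Gur/J, whose transgene is human superoxide dismutase 1 bearing an amyotrophic lateral sclerosis mutation. SOD1-WT glia came from pups labelled B6SJL-Tg(SOD1)2Gur/J, which carry the unmutated human enzyme, and nontransgenic glia from pups labelled B6SJL 2Gur/J. All pups were at postnatal day 1 to 3, the meninges had been stripped from the tissue, and all cells were grown to confluence without a treatment. The labels give neither the promoter of the transgenes nor the litters or the sex of the pups. The replicates are named biological, but p-values measure only the spread between these cultures. The comparisons asked how glia with the mutant transgene differ from glia without a transgene and from glia with the normal one, and how the normal transgene itself differs from none. They share arrays, so their values stand side by side and their likeness is not a result.

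Cytosolic phospholipase A2, encoded by Pla2g4a, frees arachidonic acid from membranes. The cyclooxygenases turn it into prostaglandin H2, the common precursor of all prostanoids, and Ptgs2 is the form that inflammatory signals and growth factors induce. Ptges, the inducible microsomal synthase, usually works together with Ptgs2, while Ptges2 and the cytosolic Ptges3 are made in most cells. Ptges3 is also the p23 co-chaperone of Hsp90. Ptgis makes prostacyclin, a dilator of vessels that acts through the receptor Ptgir. The prostaglandin E receptors Ptger2 and Ptger4 raise cyclic AMP, and Ptger3 mostly lowers it. In the nervous system these genes act in fever, pain, blood flow and the response of glia to injury, and fibroblasts and cells of vessels and meninges are known as rich sources of prostaglandins.

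The arrays detected between 13107 and 13618 probes each, with 34.8 to 35.7 beads per probe on average. Mean raw intensity was 211 to 236 on 8 arrays and 279.6 on SOD1-WT replicate 3. That array also had a larger median standard error across beads, 6.84% of the signal against 5.08% to 5.23% on the others. Of 7 astrocyte markers on the array, 6 were detected on every SOD1-G93A and SOD1-WT array and 7 on every nontransgenic array. Of 5 neuronal markers on the array, Syt1 and Nefl were detected on no array, Tubb3 and 1 probe of Map2 on all 9 at low levels (Tubb3 at group means of 4.90 in SOD1-G93A, 4.78 in SOD1-WT and 5.10 in nontransgenic glia), and Snap25 on 2, 3 and 1 arrays of these groups. The summed normalized intensity of the 7 astrocyte markers was 18828 to 20172 in SOD1-G93A, 20945 to 22666 in SOD1-WT and 15145 to 16958 in nontransgenic glia. The probe annotated to mouse Sod1 averaged 11.11 ± 0.09, 11.27 ± 0.04 and 10.94 ± 0.18 on the log2 scale in SOD1-G93A, SOD1-WT and nontransgenic glia (SD, n = 3 each). The Y-linked gene Kdm5d was detected on 3 of 3 SOD1-WT arrays and on none of the other arrays. Of the other Y-linked genes listed and on the array, Eif2s3y was detected on 2 of 3 SOD1-WT arrays (mean 4.71, near background) and on none of the others, and Uty on no array. Differences between SOD1-WT and the other groups thus cannot be told apart from a difference in the sex of the pups.

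For Ptgis, Ptges and Ptger3, levels in SOD1-G93A glia stood between those in SOD1-WT glia, the lowest, and those in nontransgenic glia, the highest. In SOD1-G93A against nontransgenic glia these 3 members fell and 0 rose, out of 7 tested, and the other 4 did not pass the test. In SOD1-G93A against SOD1-WT glia 5 members rose (Ptgs2, Ptges, Ptgis, Ptger2 and Ptger3) and 0 fell. In SOD1-WT against nontransgenic glia 4 fell (Ptgs2, Ptges, Ptgis and Ptger3) and 1 rose (Ptges3). Ptgis and Ptger3 were detected on no SOD1-WT array and passed the filter only through the groups where they were higher. With only probes detected on all 9 arrays, 3 members were tested, and 0, 1 and 1 were called in these comparisons in this order. The members were chosen with earlier results of these data known. A gene with several probes is counted by its brightest tested probe, and a call is an adjusted p below 0.05 in limma's moderated test with Benjamini-Hochberg adjustment over all tested probes. Of all 13972 tested probes 10.6% passed in SOD1-G93A against nontransgenic glia, 5.11% as higher and 5.53% as lower. In SOD1-G93A against SOD1-WT glia 15.0% passed, 6.91% as higher and 8.13% as lower, and in SOD1-WT against nontransgenic glia 25.3% passed, 13.5% as higher and 11.8% as lower. The median log2 change of the 7 members was -0.29, 0.62 and -1.28 in these 3 comparisons in this order, where the median of all tested probes was 0.01, 0.01 and 0.00. Ptgis and Ptger3 have only a bound in the comparisons with SOD1-WT, and with these at their bounds the medians were 0.56 in SOD1-G93A against SOD1-WT and -0.98 in SOD1-WT against nontransgenic glia. In bulk RNA, fewer cells of a type and less RNA per cell cannot be told apart.

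The probe of Pla2g4a, the phospholipase, was detected on 0 of 9 arrays and was not tested. The same held for the probe of the receptor Ptger4 and for 1 of 2 probes each of Ptgs2 and Ptger3. Raw intensities of these 4 probes lay between 18.6 and 33.5 on all arrays, with detection p-values of 0.155 to 0.999.

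Ptgs2, the inducible cyclooxygenase, was low in SOD1-WT glia. Its tested probe (ILMN_2735326) had log2 levels of 6.17, 6.58 and 6.28 on the SOD1-G93A arrays, 5.05, 5.11 and 4.31 on the SOD1-WT arrays and 7.11, 6.45 and 6.34 on the nontransgenic arrays. The SOD1-WT arrays lay below all 6 others, and 2 of the 3 detected the probe, while SOD1-G93A and nontransgenic arrays overlapped. Ptgs2 rose by 1.52 ± 0.22 (SE; limma adjusted p = 0.000237) in SOD1-G93A against SOD1-WT glia, 2.87-fold. It fell in SOD1-WT against nontransgenic glia, with a log2 change of -1.81 ± 0.22 (limma adjusted p = 2.69e-05). Both changes rest on this probe alone, since the second Ptgs2 probe was detected on no array. Against nontransgenic glia, the change in SOD1-G93A was -0.29 ± 0.22 (limma adjusted p = 0.523), with a 95% interval of -0.76 to 0.19. It stood at -0.05 (limma adjusted p = 0.951) without nontransgenic replicate 1, the highest array, and at -0.43 (limma adjusted p = 0.338) without nontransgenic replicate 3.

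Ptges, the inducible prostaglandin E synthase, differed in all 3 comparisons. Its levels were 5.31, 4.86 and 5.25 in SOD1-G93A, 4.53, 4.64 and 4.39 in SOD1-WT and 6.02, 5.65 and 5.98 in nontransgenic glia. No groups overlapped, and 1 of 3 SOD1-WT arrays detected the probe. SOD1-G93A stood at -0.74 ± 0.14 (SE; limma adjusted p = 0.00259) against nontransgenic glia and at 0.62 ± 0.14 (limma adjusted p = 0.00604) against SOD1-WT glia. SOD1-WT stood at -1.36 ± 0.14 (limma adjusted p = 3.83e-06) against nontransgenic glia. The call against SOD1-WT was lost without background correction, at 0.20 (limma adjusted p = 0.0578).

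Ptges2, a prostaglandin E synthase of most cells, passed in no comparison. It had levels of 6.60, 6.55 and 6.32 in SOD1-G93A, 6.49, 6.44 and 6.24 in SOD1-WT and 6.65, 6.24 and 6.39 in nontransgenic glia, and all 3 groups overlapped. The 95% intervals were -0.20 to 0.33 in SOD1-G93A against nontransgenic glia, -0.17 to 0.37 in SOD1-G93A against SOD1-WT and -0.30 to 0.23 in SOD1-WT against nontransgenic glia. These intervals leave out changes of the size seen for Ptges against nontransgenic glia.

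Ptges3, the synthase that is also a co-chaperone, was the brightest member. Its bright probe (ILMN_2674720) had levels of 9.53, 9.42 and 9.20 in SOD1-G93A, 9.74, 9.63 and 9.45 in SOD1-WT and 9.24, 9.12 and 9.04 in nontransgenic glia. All SOD1-WT arrays lay above all nontransgenic arrays, and SOD1-G93A overlapped with both. Ptges3 rose by 0.48 ± 0.11 (SE; limma adjusted p = 0.00705) in SOD1-WT against nontransgenic glia. The change was 0.25 ± 0.11 (limma adjusted p = 0.224) in SOD1-G93A against nontransgenic and -0.23 (limma adjusted p = 0.233) in SOD1-G93A against SOD1-WT glia. A dim second probe (ILMN_2763923) had levels of 4.52 to 5.12 over the 9 arrays and passed in no comparison. Over the arrays it correlated with the bright probe at r = 0.25 (Pearson, 9 arrays, a description), so the rise rests on the bright probe alone.

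Ptgis, the prostacyclin synthase, showed the widest range of the members. Its levels were 6.45, 6.26 and 6.34 in SOD1-G93A, 4.30, 4.50 and 4.27 in SOD1-WT and 8.30, 7.88 and 7.92 in nontransgenic glia. The groups were far apart, with SOD1-G93A between the others and no SOD1-WT array above background. In raw signal this was 96.4, 88.5 and 85.5 units in SOD1-G93A, 28.0, 31.3 and 31.6 in SOD1-WT and 321, 241 and 262 in nontransgenic glia. Ptgis fell in SOD1-G93A against nontransgenic glia, with a log2 change of -1.68 ± 0.12 (SE; limma adjusted p = 7.76e-07). Since SOD1-WT gives only a bound, set by the dimmest detected probe of each array, Ptgis in SOD1-G93A was at least 3.36-fold higher than in SOD1-WT glia (limma adjusted p = 7.40e-08). It was at least 10.8-fold lower in SOD1-WT than in nontransgenic glia (limma adjusted p = 8.02e-11). P-values printed beside a bound belong to the fitted change and do not test the bound. The Ptgis calls held with each array left out in turn.

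Among the receptors, Ptger3, which mostly couples to inhibition of cyclic AMP, followed the same order of groups. Its tested probe (ILMN_2770867) had levels of 5.20, 5.24 and 5.05 in SOD1-G93A, 4.30, 4.40 and 4.21 in SOD1-WT and 5.67, 5.45 and 5.61 in nontransgenic glia. No groups overlapped, and no SOD1-WT array detected the probe. The second Ptger3 probe was detected on no array, so the changes rest on the tested probe alone. Ptger3 in SOD1-G93A was at least 1.48-fold higher than in SOD1-WT glia (limma adjusted p = 3.67e-05) and at least 1.97-fold lower in SOD1-WT than in nontransgenic glia (limma adjusted p = 3.97e-07). It fell by 0.41 ± 0.10 (SE; limma adjusted p = 0.0180) in SOD1-G93A against nontransgenic glia. That call was lost without SOD1-G93A replicate 3 (limma adjusted p = 0.0874), without nontransgenic replicate 1 (limma adjusted p = 0.0763), without nontransgenic replicate 3 (limma adjusted p = 0.0578) and without background correction (log2 change -0.17, limma adjusted p = 0.0526).

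Ptger2, a receptor that raises cyclic AMP, was highest in SOD1-G93A glia by its group mean. Its levels were 6.07, 5.66 and 5.58 in SOD1-G93A, 5.33, 5.23 and 5.09 in SOD1-WT and 5.73, 5.33 and 5.60 in nontransgenic glia. All SOD1-G93A arrays lay above all SOD1-WT arrays, and SOD1-G93A overlapped with nontransgenic glia. Ptger2 rose by 0.55 ± 0.14 (SE; limma adjusted p = 0.0153) in SOD1-G93A against SOD1-WT glia, a call lost without SOD1-G93A replicate 1 (0.40, limma adjusted p = 0.0794) and with no filter on dim probes (limma adjusted p = 0.0645). The changes against nontransgenic glia were 0.22 (limma adjusted p = 0.423; 95% interval -0.08 to 0.52) in SOD1-G93A and -0.33 ± 0.14 (limma adjusted p = 0.0987) in SOD1-WT. The second of these passed with the replicate number as a block (limma adjusted p = 0.0432) and without nontransgenic replicate 2 (-0.45, limma adjusted p = 0.0490).

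Groups that do not overlap are common on these arrays, at 29.4% of tested probes for SOD1-G93A and nontransgenic, 30.3% for SOD1-G93A and SOD1-WT and 37.7% for SOD1-WT and nontransgenic glia. For the 8 tested member probes, 21 to 51 beads per array stood behind a value, with a bead standard error of 2.87% to 9.65% of the raw signal. The raw signal includes background, so for dim probes the error is a larger share of the signal above background. Sizes depend on the background step. Without background correction and with 50 added before log2, Ptgs2 stood at 0.67 in SOD1-G93A against SOD1-WT and -0.85 in SOD1-WT against nontransgenic glia. On that scale Ptger3 stood at 0.29 and -0.46 in the same comparisons, Ptger2 at 0.24 in SOD1-G93A against SOD1-WT glia, and Ptges against nontransgenic glia at -0.32 in SOD1-G93A and -0.52 in SOD1-WT. Ptgis stood at -1.18 in SOD1-G93A against nontransgenic, 0.83 in SOD1-G93A against SOD1-WT and -2.01 in SOD1-WT against nontransgenic glia.

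**Figure D1:**
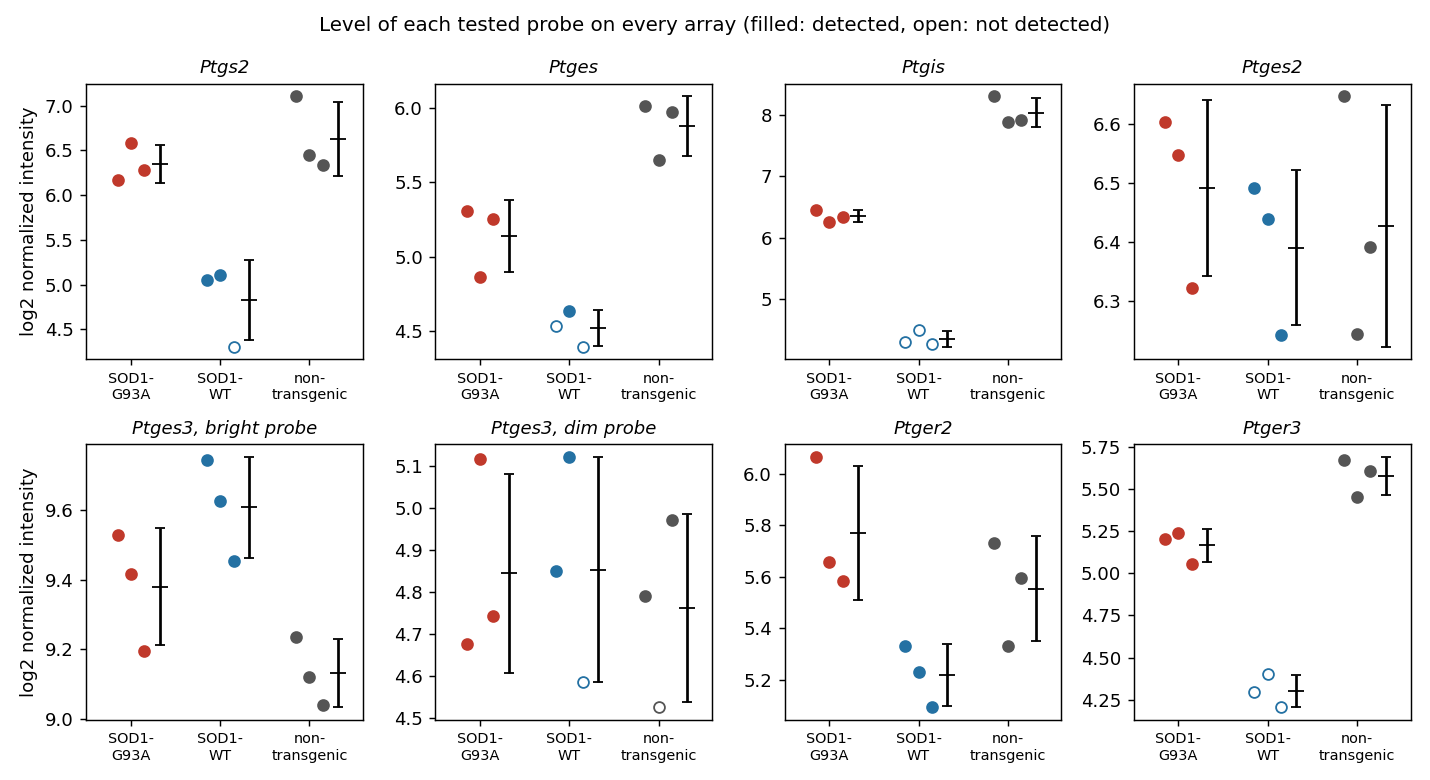
Log2 normalized intensity (vertical axis) of the 8 tested member probes on each of 3 SOD1-G93A, 3 SOD1-WT and 3 nontransgenic arrays (points, open where not detected), with the group mean and SD beside them (n = 3). Ptgis, Ptges and Ptger3 have SOD1-G93A between SOD1-WT (lowest) and nontransgenic (highest), with no overlap, while Ptges2 overlaps in all groups.

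**Figure D2:**
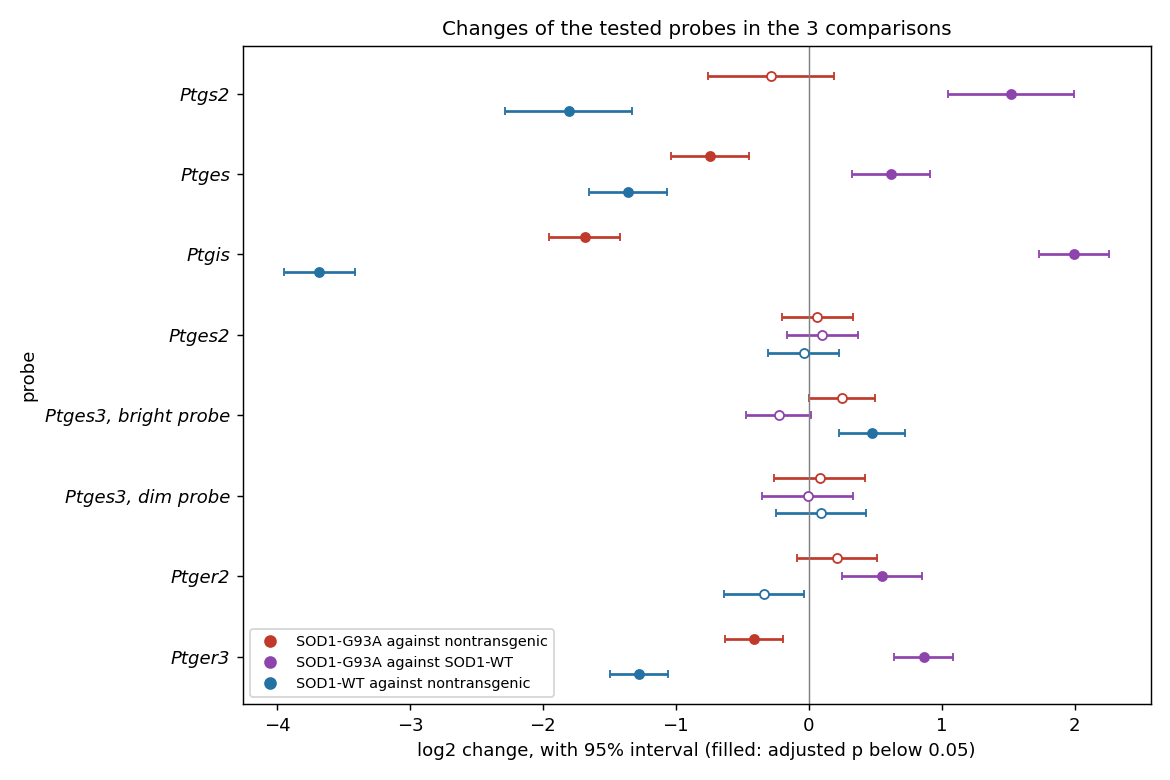
Log2 change (horizontal axis) of each tested probe in SOD1-G93A against nontransgenic glia, in SOD1-G93A against SOD1-WT glia and in SOD1-WT against nontransgenic glia, with 95% intervals, and filled points for an adjusted p below 0.05. Ptgis has the widest spread, with fitted changes of -1.68, 2.00 and -3.68, of which the comparisons with SOD1-WT involve arrays below background.

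The promoters of Ptgs2, Ptges and Ptger3 are shown because these members were low together in SOD1-WT glia and a sequence is at hand for each. They run from 250 bases before to 30 bases after the RefSeq start on GRCm38.p6, 5′ to 3′ on the strand of the gene, at chr1:150099781-150100060 (plus strand) for Ptgs2, chr2:30903268-30903547 (minus strand) for Ptges and chr3:157566626-157566905 (plus strand) for Ptger3. Capitals mark matches, on either strand, to the motifs searched.
Ptgs2: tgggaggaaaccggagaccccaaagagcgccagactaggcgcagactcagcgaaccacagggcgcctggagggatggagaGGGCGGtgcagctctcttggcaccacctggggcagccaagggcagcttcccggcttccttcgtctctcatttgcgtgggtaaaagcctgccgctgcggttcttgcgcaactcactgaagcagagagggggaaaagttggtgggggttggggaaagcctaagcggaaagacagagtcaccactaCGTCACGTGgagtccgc
Ptges: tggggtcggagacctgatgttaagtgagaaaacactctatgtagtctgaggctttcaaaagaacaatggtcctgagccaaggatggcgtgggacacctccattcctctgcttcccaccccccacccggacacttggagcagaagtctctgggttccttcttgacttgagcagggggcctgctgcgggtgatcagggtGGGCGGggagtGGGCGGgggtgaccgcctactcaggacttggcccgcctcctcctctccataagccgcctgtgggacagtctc
Ptger3: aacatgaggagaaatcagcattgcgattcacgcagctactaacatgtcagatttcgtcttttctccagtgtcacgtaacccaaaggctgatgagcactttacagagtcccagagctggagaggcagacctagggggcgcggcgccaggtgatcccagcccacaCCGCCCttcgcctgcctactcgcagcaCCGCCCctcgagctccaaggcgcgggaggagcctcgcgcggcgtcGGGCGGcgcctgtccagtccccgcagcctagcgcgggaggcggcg

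The motifs were TGACG (a half-site of the cyclic AMP response element, found in 19.9% of 32851 promoter windows of this length), the E-box CACGTG (6.79%), the GC box GGGCGG (34.7%) and the TATA box letters TATAAA (13.1%). The Ptgs2 window held a GC box at -170 to -165 from the start, a TGACG match on the other strand at 14 to 18 and an E-box at 17 to 22, which overlaps it. The Ptges window held GC boxes at -53 to -48 and -42 to -37. The Ptger3 window held GC boxes at -87 to -82 and -60 to -55, on the other strand, and at -15 to -10. The GC box was thus the only one of these motifs in all 3 windows, and TATAAA was in none. No window is shown for Ptgis, which was also low in SOD1-WT glia, or for a member that passed in no comparison, such as Ptges2. Positions and absences depend on the RefSeq start, and no other start was examined. These letters describe the windows and show no binding.

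Markers of fibroblasts and meninges differed in both comparisons with SOD1-WT, but went in both directions in SOD1-G93A against nontransgenic glia. Of 10 such markers on the array 9 were tested. All 9 rose in SOD1-G93A against SOD1-WT glia (median 1.89), all 9 fell in SOD1-WT against nontransgenic glia (median -1.63), and 2 rose and 3 fell in SOD1-G93A against nontransgenic glia (median -0.03). Those that rose there were Lum (0.79) and Col1a2 (0.86), and those that fell were Foxc2 (-1.63), Col1a1 (-0.59) and Igf2 (-0.40). Their summed normalized intensity was 16996 to 18154 in SOD1-G93A, 5600 to 7247 in SOD1-WT and 19054 to 20963 in nontransgenic glia. Dcn and Igf2, the brightest of the 10 markers, make up most of this sum. The brightest Dcn probe averaged 13.14 in SOD1-G93A and 13.16 in nontransgenic glia, and Igf2 averaged 12.51 and 12.91. The forkhead factor Foxc1 was detected in no group and Foxc2 in all but SOD1-WT glia. The part of these cells in the changes of Ptgis, Ptges, Ptger3 and Ptgs2 was not tested. Of 7 markers of endothelial and mural cells on the array, Kdr, Tek and Cldn5 were detected in no group and 4 were tested. In both comparisons with SOD1-WT 3 of the 4 passed. The endothelial cadherin Cdh5 averaged 7.69 in SOD1-G93A, 4.34 in SOD1-WT (detected on 0 of 3 arrays) and 8.65 in nontransgenic glia, the order of groups seen for Ptgis. It fell by 0.97 in SOD1-G93A against nontransgenic glia (limma adjusted p = 3.20e-05), in SOD1-G93A was at least 8.50-fold higher than in SOD1-WT glia, and in SOD1-WT was at least 16.6-fold lower than in nontransgenic glia. The mural marker Pdgfrb was also low in SOD1-WT glia (means of 7.78 in SOD1-G93A, 7.18 in SOD1-WT and 7.87 in nontransgenic glia), while Acta2 was high there (12.61, 13.03 and 12.41 for its brightest probe, in the same order). The endothelial marker Pecam1, also tested, was lowest in SOD1-G93A glia. Its means were 4.37 in SOD1-G93A, 4.54 in SOD1-WT and 4.71 in nontransgenic glia, with 0, 1 and 2 of 3 arrays detecting it. The sum over the 7 markers, in which Acta2 is the brightest, was 6013 to 7192 in SOD1-G93A, 8053 to 9426 in SOD1-WT and 5985 to 6279 in nontransgenic glia. The part of endothelial and mural cells in the members' changes was not tested. The 9 microglial and macrophage markers summed to 8297 to 8988 in SOD1-G93A, 6950 to 7363 in SOD1-WT and 6654 to 8435 in nontransgenic glia, and the 6 markers of ependymal cells and choroid plexus to 1852 to 2411, 3822 to 3946 and 1014 to 1095 in the same order of groups.

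**Figure D3:**
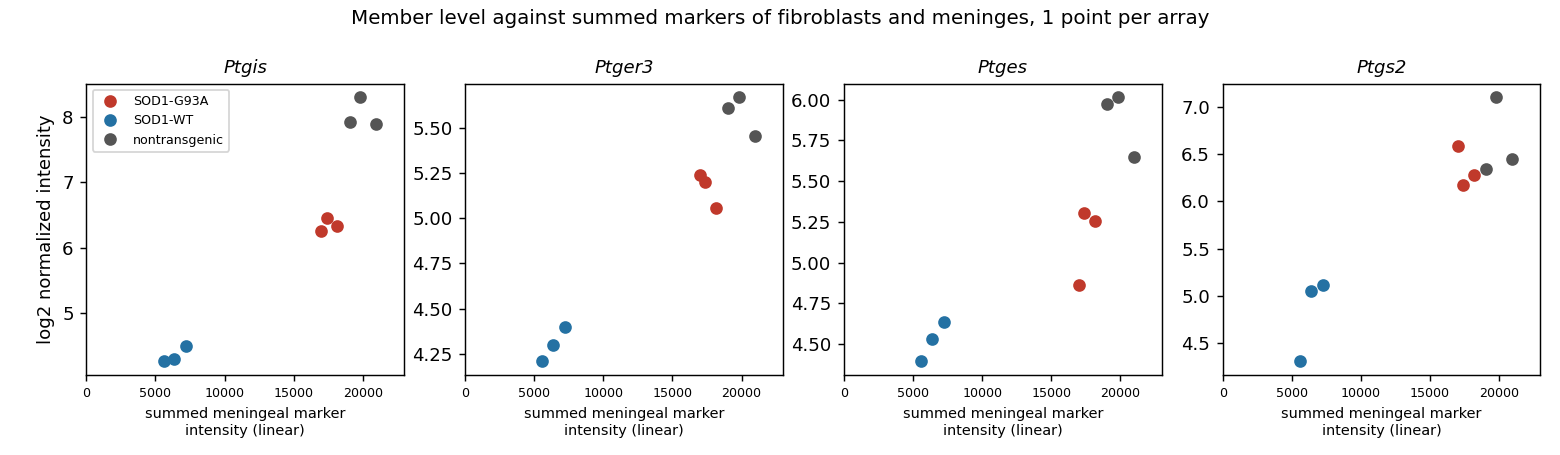
Log2 normalized intensity of Ptgis, Ptger3, Ptges and Ptgs2 (vertical axes) against the summed linear intensity of 10 fibroblast and meningeal markers (horizontal axis), with 1 point per array and colours for SOD1-G93A, SOD1-WT and nontransgenic glia. Sums are 16996 to 18154 on SOD1-G93A, 5600 to 7247 on SOD1-WT and 19054 to 20963 on nontransgenic arrays, and neither the sums nor the Ptgis levels of these groups overlap. The sums rest mostly on the bright markers Dcn and Igf2.

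Genes whose levels ran most like those of the members over the 9 arrays were ranked by Pearson's r, as a description over arrays that share their groups. For Ptgis they were Ctsk (0.996), Cdhr1 (0.995) and Trib2 (0.995). For Ptger3 they were Thbd (0.997), Foxc2 (0.995) and Gjb2 (0.993), of which Foxc2 is one of the meningeal markers. For Ptges they were Gpr182 (0.986), Egfl7 (0.976) and Clic4 (0.976), and for Ptgs2 they were Insyn1 (0.989), Vegfc (0.978) and Vkorc1 (0.978). Ptger2 had lower values, at 0.946 with Foxf2, 0.942 with Il6 and 0.932 with Dram1. The bright probe of Ptges3 ran with Hdac5 (0.987), Cep97 (0.979) and C2cd3 (0.974). Taken over deviations from the group means, r was lower for each of these genes. It then ran from 0.43 (Ptgis with Cdhr1) to 0.97 (Ptges3 with Hdac5), and was 0.59 for Ptgis with Ctsk and 0.66 with Trib2.

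Among the other prostanoid genes, Ptgds had the largest changes in both comparisons with SOD1-WT. Ptgds, a synthase of prostaglandin D2, averaged 12.91 in SOD1-G93A, 6.86 in SOD1-WT and 13.16 in nontransgenic glia on the log2 scale, with changes of 6.04 in SOD1-G93A against SOD1-WT, -6.30 in SOD1-WT against nontransgenic and -0.26 (limma adjusted p = 0.0846) in SOD1-G93A against nontransgenic glia. Ptgdr, a receptor of prostaglandin D2, was detected on the SOD1-G93A arrays only and was at least 1.58-fold higher there than in SOD1-WT and at least 1.57-fold higher than in nontransgenic glia. Ptgdr passed the filter only through the SOD1-G93A arrays, so its calls are not independent of that filter. Both of these rises are included in the counts and shares below. The second synthase Hpgds (means of 6.88, 6.97 and 6.81 in SOD1-G93A, SOD1-WT and nontransgenic glia) and the prostaglandin E receptor Ptger1 (4.51, 4.56 and 4.26) passed in no comparison. The prostacyclin receptor Ptgir rose by 0.47 (limma adjusted p = 0.0132) in SOD1-G93A against SOD1-WT glia. Prxl2b, which makes prostaglandin F2α, fell by 0.46 (limma adjusted p = 0.00688) in SOD1-G93A and by 0.62 (limma adjusted p = 0.000268) in SOD1-WT, each against nontransgenic glia. Of 12 tested genes of this list, which leaves out the 10 members, 1 rose and 1 fell in SOD1-G93A against nontransgenic, 3 rose and 0 fell in SOD1-G93A against SOD1-WT, and 0 rose and 2 fell in SOD1-WT against nontransgenic glia. These are 16.7%, 25.0% and 16.7% of the list, against 10.6%, 15.0% and 25.3% of all tested probes.

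Of 17 tested genes that supply arachidonic acid, 0 passed limma's test in SOD1-G93A against nontransgenic glia (median -0.01), where 3 had an unadjusted p below 0.05. In SOD1-G93A against SOD1-WT glia 1 rose and 1 fell (median 0.04), namely Anxa1, an inhibitor of phospholipase A2 (0.63, limma adjusted p = 0.00824), and Faah, the hydrolase of anandamide (-0.94, limma adjusted p = 4.12e-05). In SOD1-WT against nontransgenic glia Faah (0.85, limma adjusted p = 5.70e-05) and the desaturase Fads2 (0.55, limma adjusted p = 0.00668) rose and Anxa1 fell (-0.996, limma adjusted p = 0.000132). The shares called, 0%, 11.8% and 17.6%, were each below the 10.6%, 15.0% and 25.3% of all tested probes.

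The list of the lipoxygenase branch, which makes leukotrienes from the same arachidonic acid, also held epoxide hydrolases and had 8 tested genes. In SOD1-G93A against nontransgenic glia 2 fell, the platelet-type lipoxygenase Alox12 (-0.73, limma adjusted p = 0.000821) and Mgst2 (-0.50, limma adjusted p = 0.0370), and 0 rose. In SOD1-G93A against SOD1-WT glia 3 rose and 0 fell, led by Mgst2 (0.91, limma adjusted p = 0.000421) and Ltc4s (0.64, limma adjusted p = 0.00999), both synthases of leukotriene C4. The third was the epoxide hydrolase Ephx2 (0.31, limma adjusted p = 0.0371). In SOD1-WT against nontransgenic glia 4 fell, namely Mgst2 (-1.40, limma adjusted p = 3.87e-06), Ltc4s (-1.11, limma adjusted p = 8.15e-05), Ephx2 (-0.47, limma adjusted p = 0.00185) and Alox12, at least 1.65-fold lower (limma adjusted p = 2.39e-05). The 1 that rose was Alox5ap (0.45, limma adjusted p = 0.0130), named after its values were seen. The medians were -0.16, 0.18 and -0.39 in these comparisons, and 25.0%, 37.5% and 62.5% of the 8 genes were called, against 10.6%, 15.0% and 25.3% of all tested probes.

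Of 22 tested inducers and regulators of Ptgs2 and Ptges, 4.55% were called in SOD1-G93A against nontransgenic glia, 9.09% in SOD1-G93A against SOD1-WT glia and 27.3% in SOD1-WT against nontransgenic glia, against 10.6%, 15.0% and 25.3% of all tested probes. Tlr2, a receptor for bacterial products, rose by 0.70 (limma adjusted p = 0.00158) in SOD1-G93A against nontransgenic glia, the only call of 22. In SOD1-G93A against SOD1-WT glia the immediate early factor Egr1 (0.86, limma adjusted p = 9.95e-05) and the cytokine Il6 (0.82, limma adjusted p = 0.00139) rose and 0 fell. In SOD1-WT against nontransgenic glia 3 rose and 3 fell, with Egr1 at -1.22 (limma adjusted p = 1.81e-06), Jun at -0.49 (limma adjusted p = 0.00788) and Tlr2 at 0.74 (limma adjusted p = 0.000390). The cytokine Il1b rose there by 0.45 (limma adjusted p = 0.0243). The other calls there, named after their values were seen, were Tnf (0.48, limma adjusted p = 0.0443) and Il6 (-0.46, limma adjusted p = 0.0353).

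Among 20 tested genes of cyclic AMP signalling, 1 fell and 0 rose in SOD1-G93A against nontransgenic glia, the growth factor Vegfa (-0.98, limma adjusted p = 0.0153). In SOD1-G93A against SOD1-WT glia 1 rose and 0 fell, the neurotrophin Bdnf, at least 1.31-fold higher (limma adjusted p = 0.0198). In SOD1-WT against nontransgenic glia 4 fell and 0 rose: Vegfa (-0.89, limma adjusted p = 0.0123), the phosphodiesterases Pde4d (-0.56, limma adjusted p = 0.00764) and Pde4b (-0.41, limma adjusted p = 0.0479), and Bdnf, at least 1.24-fold lower (limma adjusted p = 0.0236). These are 5.00%, 5.00% and 20.0% of the list, against 10.6%, 15.0% and 25.3% of all tested probes.

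**Figure D4:**
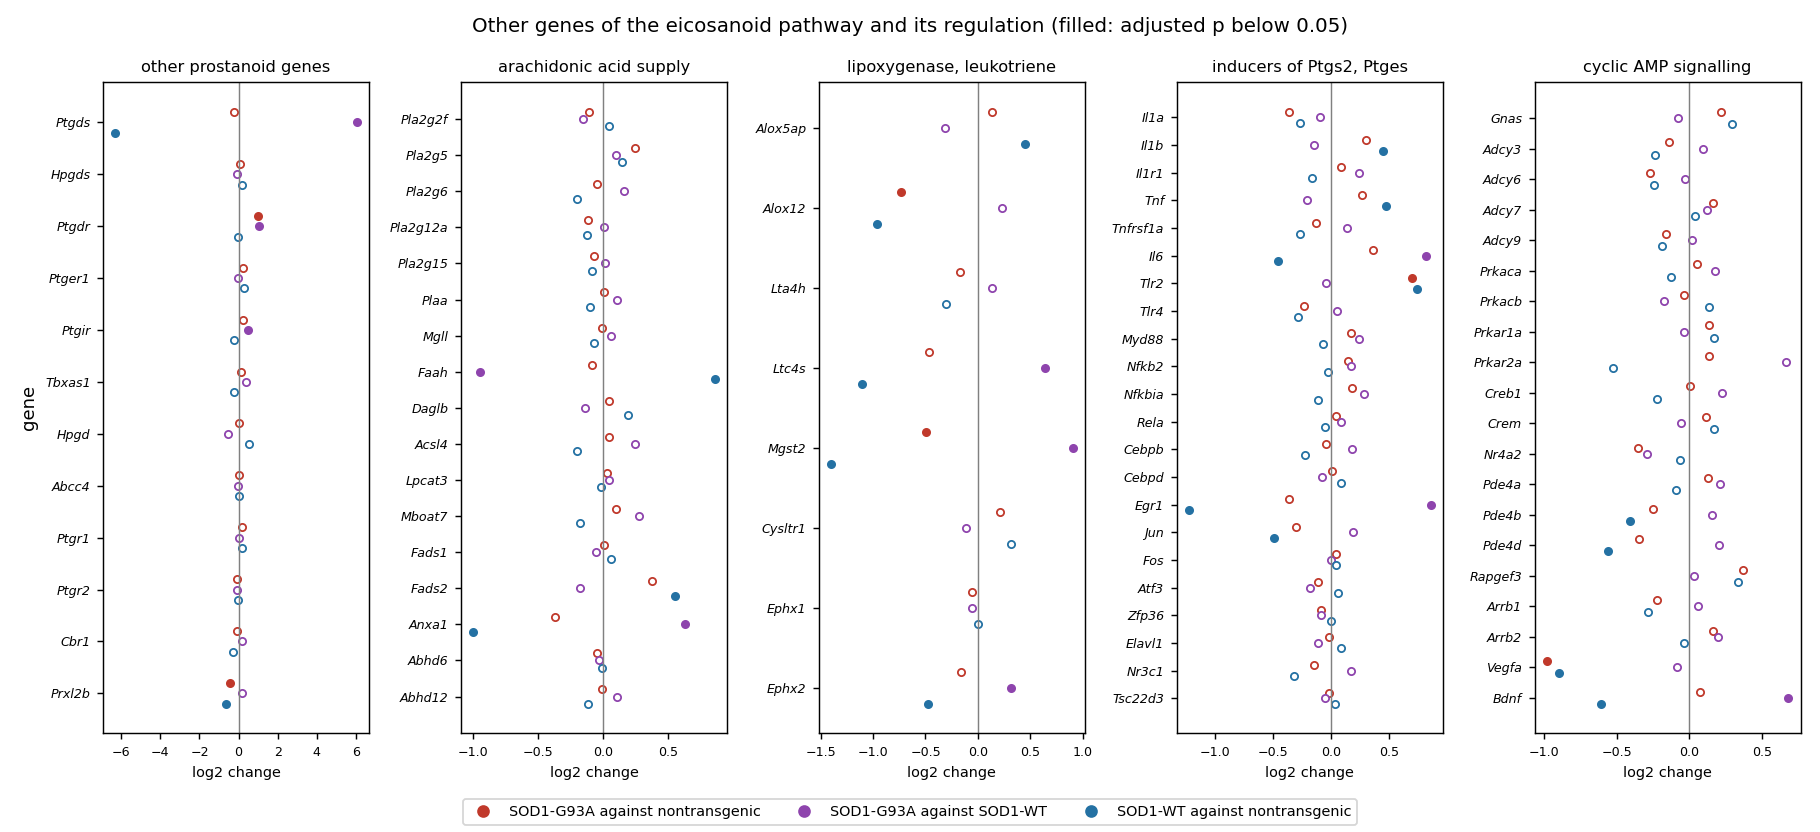
Log2 change (horizontal axes) of each tested gene of 5 further lists in SOD1-G93A against nontransgenic glia, in SOD1-G93A against SOD1-WT glia and in SOD1-WT against nontransgenic glia, with filled points for an adjusted p below 0.05. Ptgds lies far from all others, at 6.04 and -6.30 in the comparisons with SOD1-WT, and most of the other points are open.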

How the data were processed

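Total RNA of 9 glial cultures was amplified, labelled with biotin and read on Illumina bead arrays, per the labels' protocols. For 24613 probes per array, the authors deposited, per the file headers, raw mean bead intensity, bead count, bead standard error and detection p-value. The authors' second deposited table holds normalized intensity values, with every array at a mean of 204.3 and 21.8% to 23.4% of values below 0, and served as an alternative. BeadStudio is named in the submitters' processing notes, and its version is not given in the sources used here.

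Raw intensities were corrected and quantile-normalized with neqc (limma 3.58.1, R 4.3.3), with negative controls inferred from the detection p-values, an offset of 16 and log2. The 13972 probes that 3 or more arrays detected (detection p below 0.01) were kept. One limma fit held all 9 arrays and 3 groups (6 residual and 7.52 prior degrees of freedom), with a two-sided test and Benjamini-Hochberg adjustment at 0.05 within each of 3 comparisons. Values are log2 changes, first group minus second, with SE unless SD is named. In a group where no array detected a probe, a fold is a bound: the other group's mean against the lowest detected level of each array (or the probe's own, if higher). The p-value beside it is limma's for the fitted change, not for the bound. Such a probe passed the filter only through arrays of the other groups. Log2 levels of different probes are not comparable as amounts.

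In the platform annotation 20984 probes had 1 symbol, 1 had several and 3628 had none. Symbols were updated through gene identifiers (20968) or accessions (8) of a RefSeq table for GRCm38.p6, and 8 stayed as given. The files name no build. Promoter sequences are RefSeq's for that assembly, with an entry for 9 of the 10 members.

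Members and gene lists were chosen with earlier results of these data known. All member probes are named, and from each further list up to 4 called genes per comparison with the smallest p, plus Ptgds, Ptgdr, Hpgds and Ptger1. Marker lists were astrocyte, microglia and macrophage, fibroblast and meninges, endothelial and mural, ependymal and choroid plexus, oligodendrocyte lineage (summed intensity 6655 to 6837 in SOD1-G93A, 5314 to 5564 in SOD1-WT and 4508 to 6001 in nontransgenic glia), neuron (120 to 128, 121 to 139 and 123 to 131) and Y-linked. The fit was tested on simulated data. Alternatives were other background corrections, offsets, filters, normalizations and the authors' table, array weights, a replicate block and leaving out each array.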

Additional observations from a re-analysis of the deposited data

How the results depend on the processing

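Each of 24 log2 changes of member probes was recomputed under 20 alternatives, which gave 465 values. Direction and side of the threshold were kept in 445, a call was lost in 7, gained in 2, and the sign turned in 11, all of them for changes that passed the test in no alternative. The calls of Ptgis in all 3 comparisons, of Ptgs2 and Ptger3 in both comparisons with SOD1-WT, and of Ptges against nontransgenic glia in SOD1-G93A and SOD1-WT held in each alternative that tested them.

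Signs that turned belonged to Ptges2 and the dim Ptges3 probe. Ptges2 in SOD1-WT against nontransgenic glia stood at 0.065 with array weights and at -0.129 to 0.073 with each array left out, above 0 without SOD1-WT replicate 3 or nontransgenic replicate 1, and in SOD1-G93A against nontransgenic glia at -0.029 to 0.174, below 0 without nontransgenic replicate 2. The dim Ptges3 probe in SOD1-G93A against SOD1-WT glia ranged over -0.143 to 0.13, above 0 without SOD1-G93A replicate 1, SOD1-G93A replicate 3 or SOD1-WT replicate 2. In SOD1-G93A against nontransgenic glia it ranged over -0.053 to 0.187, below 0 without SOD1-G93A replicate 2 or nontransgenic replicate 2, and in SOD1-WT against nontransgenic glia over -0.044 to 0.223, below 0 without SOD1-WT replicate 2 or nontransgenic replicate 2. Keeping only probes detected on all 9 arrays dropped Ptgs2, Ptges, Ptgis and Ptger3, so 3 members were tested instead of 7. Members called were then 0, 1 and 1 in SOD1-G93A against nontransgenic glia, in SOD1-G93A against SOD1-WT glia and in SOD1-WT against nontransgenic glia, instead of 3, 5 and 5. With each array left out, members called ranged over 2 to 3, 4 to 5 and 5 to 6 in these comparisons, and probes called over 1038 to 1853, 1543 to 2127 and 2876 to 3547.

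Deviations from group means of same-numbered arrays correlated at -0.02 to 0.15. Such low values cannot decide whether the replicate numbers pair the cultures. With the replicate number as a block, 1526, 2189 and 3633 probes were called instead of 1487, 2102 and 3539, and members called were 3, 5 and 6. The added call was Ptger2 in SOD1-WT against nontransgenic glia (limma adjusted p = 0.0432), also gained without nontransgenic replicate 2 (-0.45, limma adjusted p = 0.0490). A slide block was not run, since the headers name no slide. Signal near background limits Ptges, Ptgis, Ptger3 and Ptgs2 in SOD1-WT glia, where 1, 0, 0 and 2 of 3 arrays detected them. Causes of these shifts were not tested.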
